A study of Mus musculus with 6 samples.

Results

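The E2F and DP transcription factors were followed in mouse embryonic fibroblasts, connective tissue cells cultured from embryos, with and without functional Pax7. They were taken by gene symbol, although earlier results of these data were known when the family was chosen. They were the activating factors E2f1, E2f2 and E2f3, the repressing factors E2f4, E2f5 and E2f6, the atypical factors E2f7 and E2f8, and the DP partners Tfdp1 and Tfdp2. These were 10 of the 22180 genes that a probe set of the array named alone, and each of the 10 had 1 such probe set. The study compared Pax7+/+ with Pax7-/- cells of an F1 strain (C57Bl6N x 129Sv), grown in DMEM with FBS and collected at confluence, on 3 arrays per genotype that the labels number as biological replicates 1 to 3. Both genotypes share the strain, the medium and the confluent state. The labels do not tie a number to an embryo or a culture, and p-values here therefore measure only how these samples spread, which may be technical. The labels do not give the Pax7 allele.

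E2F proteins bind DNA as dimers with a DP protein and govern the genes of the passage from G1 into S phase. In resting cells the pocket proteins (Rb1, Rbl1, Rbl2) hold E2Fs down and, with E2f4 or E2f5 and the MuvB proteins, repress the cell cycle programme, and cyclin-dependent kinases release this hold. E2f6 represses without a pocket protein, through Polycomb complexes, and E2f7 and E2f8 bind DNA without a DP partner and repress E2F targets, several of the E2F genes among them. Confluent fibroblasts largely leave the cycle through contact inhibition. How far the cultures of this study had done so was not tested.

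Values are log2 signals of the array, called signals below, and differences are knockout minus wild type. Signals of different genes come from different probes and are not set against each other. A signal was called above background where it exceeded a background level, the 95th percentile over 1394 genes for odorant and vomeronasal receptors on that array, which lay at 5.33 to 5.44 on replicates 1 and 2 and at 4.63 to 4.65 on replicate 3. The replicate 3 arrays of both genotypes stood apart from the other 4 arrays: over all genes they correlated at 0.992 with each other and at 0.814 to 0.844 with the rest, which correlated at 0.988 to 0.990 among themselves. The interquartile range of the signals was 2.98 and 3.02 on the replicate 3 arrays and 1.62 to 1.69 on the others. Pax7 itself was at 6.14, 5.65 and 4.88 in wild type replicates 1, 2 and 3 and at 6.17, 5.95 and 5.05 in the knockout, and since no source used here places its probe set relative to the altered part of Pax7, these signals do not check the genotype. GEO's field for cell type says ESCs (embryonic stem cells), whereas the titles name fibroblasts. Ranked among all genes of an array, the median fibroblast marker was at percentile 97.9 to 98.8 and the median pluripotency marker at percentile 33.0 to 42.9. Of 10 fibroblast markers 9 were above background on at least 3 arrays, as were 3 of 10 pluripotency, 3 of 6 epithelial, 1 of 6 endothelial, 3 of 6 macrophage, 1 of 4 erythroid, 4 of 6 neural and 4 of 6 skeletal muscle markers. Pou5f1 was above background on all 6 arrays and Nanog on 2. The Pou5f1 signals stood little above those levels, at 5.62, 5.55 and 4.73 in wild type and at 5.48, 5.8 and 4.78 in the knockout.

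Several E2F genes are known to be E2F targets themselves, so the start regions of the members are shown before their values. The RefSeq promoter table (build GRCm38.p6, windows of 250 bases before and 50 bases from a transcript start on) held 12 windows for 8 of the 10 members. It held none for E2f4 and E2f5. The E2F site was searched as TTTCCCGC, TTTCGCGC, TTTGCCGC or TTTGGCGC on both strands. It was found for 4 of 8 members (50%: E2f2, E2f3, E2f7 and Tfdp1) and for 704 of 27025 genes with a window (2.6%). Windows cover only listed transcript starts, and whether they hold each gene's main start was not tested. A member without a match, E2f1 among them, may therefore carry the site elsewhere. The stretches below are printed because they hold the E2F site, or, for E2f8, the cell cycle homology region TTTGAA that MuvB complexes recognise, with these matches in capitals. Positions count from the transcript start of the window.
E2f2 (chr4:136172294-136172323, plus strand, bases 21 to 50 of the transcript): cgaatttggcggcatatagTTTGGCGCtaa
E2f3 (chr13:29986065-29986213, minus strand, bases -150 to -2): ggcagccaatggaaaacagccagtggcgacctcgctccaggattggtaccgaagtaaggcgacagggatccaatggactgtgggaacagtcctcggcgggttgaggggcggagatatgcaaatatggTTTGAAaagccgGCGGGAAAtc
E2f7 (chr10:110745189-110745329, plus strand, bases -250 to -110): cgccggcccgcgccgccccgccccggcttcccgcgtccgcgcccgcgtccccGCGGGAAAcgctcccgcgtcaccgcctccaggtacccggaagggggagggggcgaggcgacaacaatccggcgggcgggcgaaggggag
E2f8 (chr7:48881601-48881630, minus strand, bases -34 to -5, which lie within the RefSeq gene): gggagcgggttaatTTCAAAtcgggggctg
Tfdp1 (chr8:13338601-13338724, plus strand, bases -150 to -27): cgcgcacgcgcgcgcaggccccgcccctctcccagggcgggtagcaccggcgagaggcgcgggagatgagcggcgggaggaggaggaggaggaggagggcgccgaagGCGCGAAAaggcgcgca

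In E2f3 the TTTGAA match starts at base -23 and the E2F site, read on the other strand as GCGGGAAA, at base -11. In E2f2 the E2F site starts at base 40 of the transcript, in E2f7 at -198 and in Tfdp1 at -43. The shorter TTTGAA, with matches for 3 of 8 members, was found for 20.2% of all genes with a window. The CCAAT box (CCAAT) was found for 4 of 8 members (50%) against 41.1% of all genes, and the GC box (GGGCGG) for 6 of 8 (75%) against 38.2%. Among the lists described below, the E2F site was found for 16 of 31 E2F targets of G1/S with a window (51.6%) and for 1 of 22 G2/M genes (4.55%), and TTTGAA for 4 of 31 (12.9%) and 17 of 22 (77.3%). The lists were drawn up as E2F targets and MuvB genes, classes tied to these sites, so this contrast is not independent evidence. Shares over all genes were not matched for GC content. All matches here are letters in a window and were not tested as binding sites.

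No E2F or DP gene differed between the genotypes past the threshold. Limma with genotype as the only term called 0 of the 10, at an adjusted p of 1.00 for each, and 0 of 22180 genes in all (0%, with 15 genes, or 0.0676%, at an unadjusted p under 0.05, of which 0 were members). With the replicate number as a block, which takes out the replicate 3 divide, limma again called 0 of 10, with 0 members at an unadjusted p under 0.05, where 17 genes in all passed (0.0766%) and 1492 had an unadjusted p under 0.05 (6.73%). The smallest adjusted p of a member with the block was 0.764, for E2f6. The median difference of the 10 members was 0.01 (SD over members 0.15), beside -0.00 over all genes, with 5 members above and 5 below 0. The genotypes overlapped for all 10 members, and 1.41% of all genes had no overlap. Only 2 members, E2f8 and Tfdp1, had the same sign in all 3 replicates, as had 27.5% of all genes. Signs and spreads over replicates hold only for arrays paired by number. E2f8 was at 5.53 in knockout replicate 1 and at 5.57 in wild type replicate 2. Tfdp1 was at 8.0 in knockout replicate 2 and at 7.90 in wild type replicate 1.

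**Figure D1:**
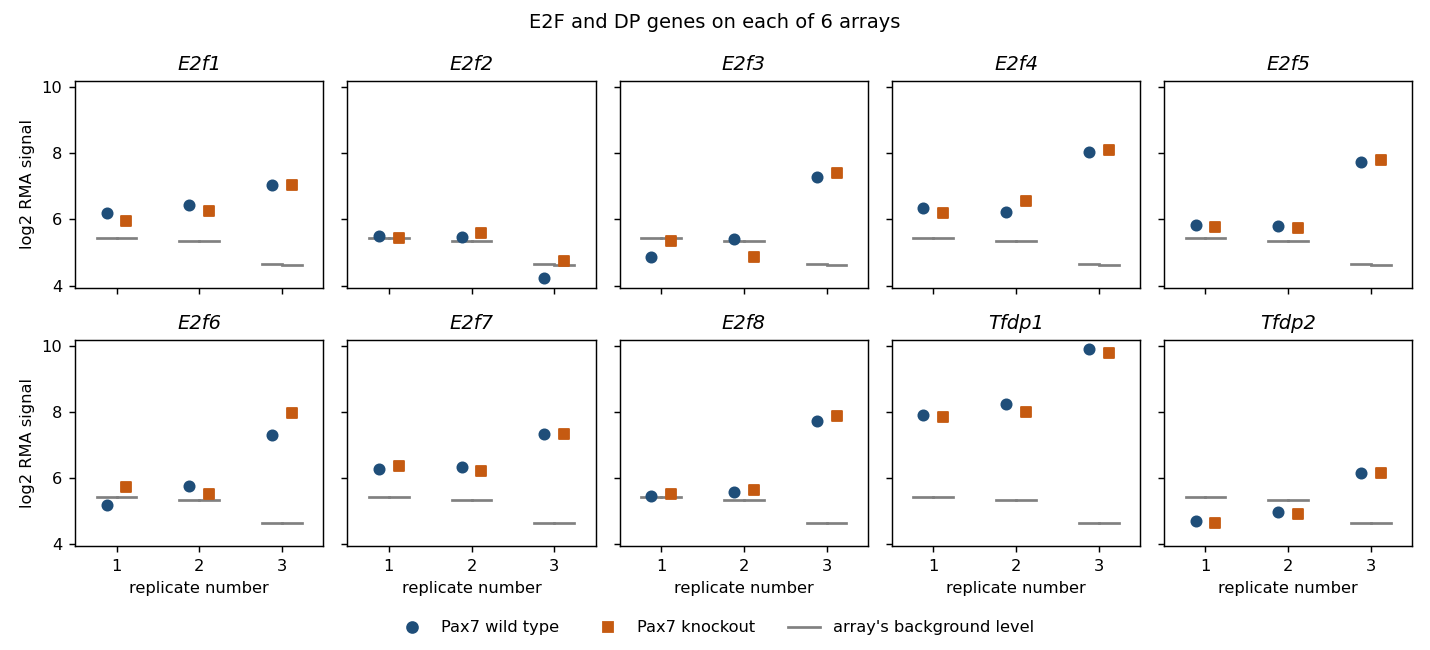
The log2 signal of each E2F and DP gene (panels) on the 6 arrays by replicate number, with wild type as circles, knockout as squares and each array's background level as a grey bar. Wild type and knockout of a number lie close together, and all members except E2f2 are highest on the 2 replicate 3 arrays.

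Among the activating factors, E2f1, which drives S phase genes, was at 6.20, 6.42 and 7.03 in wild type replicates 1, 2 and 3 and at 5.96, 6.25 and 7.03 in the knockout. Replicates 1 and 2 were lower in the knockout and replicate 3 was level, by -0.23, -0.17 and 0.00. The mean difference was -0.13 (limma SE 0.37 without and 0.09 with the block), with a 95% interval of -0.35 to 0.08 in the fit with the block. E2f1 was above background on every array.

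E2f2, also an activator, stayed close to the background level throughout. It was at 5.50, 5.46 and 4.22 in wild type and at 5.44, 5.60 and 4.74 in the knockout. It lay at most 0.26 above the background level on 5 arrays and 0.43 below it on wild type replicate 3. Its differences by replicate were -0.06, 0.15 and 0.52, and the largest of them is set against a wild type signal below background. The mean difference was 0.20 (SE 0.12 with the block, 95% interval -0.06 to 0.47).

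E2f3, the third activator, was at 4.86, 5.40 and 7.27 in wild type and at 5.36, 4.85 and 7.40 in the knockout. On replicates 1 and 2 only wild type replicate 2 exceeded background, so the differences of 0.50 and -0.55 there come from signals at or near background and have opposite signs. On replicate 3, where both genotypes were more than 2 log2 units above background, the difference was 0.14. The mean difference was 0.03 (SE 0.17 with the block, 95% interval -0.35 to 0.41).

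Among the repressing factors, E2f4, the main partner of pocket proteins in resting cells, was at 6.34, 6.22 and 8.03 in wild type and at 6.19, 6.57 and 8.09 in the knockout. Its differences of -0.15, 0.35 and 0.06 did not share a sign, with a mean of 0.09 (SE 0.11 with the block, 95% interval -0.16 to 0.34). E2f5, the other factor of this pair, was at 5.84, 5.81 and 7.74 in wild type and at 5.77, 5.74 and 7.81 in the knockout. Its differences of -0.08, -0.08 and 0.07 were among the smallest, with a mean of -0.03 (SE 0.09, 95% interval -0.23 to 0.18). Both genes were above background on every array.

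E2f6, the Polycomb-linked repressor, had the largest mean difference of the 10 genes, 0.33 (SE 0.85 without and 0.16 with the block), a 1.26-fold higher mean in the knockout that did not pass. Without a block it turned to -0.12 without wild type replicate 1, to -0.45 without knockout replicate 3 and to -0.10 with array weights, and with the block it was 0.16 to 0.61 when 1 replicate number was dropped. It was at 5.17, 5.76 and 7.29 in wild type and at 5.73, 5.53 and 7.97 in the knockout. Replicates 1 and 3 were higher in the knockout, by 0.55 and 0.67, and replicate 2 was lower, by -0.23. The wild type signal of replicate 1 was below background. The 95% interval with the block was -0.03 to 0.69, the highest upper bound of the members.

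The atypical factors were nearly level between genotypes. E2f7 was at 6.28, 6.32 and 7.32 in wild type and at 6.37, 6.20 and 7.32 in the knockout, with differences of 0.10, -0.12 and -0.00 and a mean of -0.01 (SE 0.09, 95% interval -0.22 to 0.20). E2f8 was at 5.45, 5.57 and 7.74 in wild type and at 5.53, 5.65 and 7.87 in the knockout. Its differences of 0.08, 0.09 and 0.13 had the smallest spread over replicates of the 10 genes (SD 0.02), and E2f8 was the 1 member higher in the knockout in all 3, as were 13.8% of all genes. The mean difference of E2f8 was 0.10 (SE 0.09 with the block, 95% interval -0.10 to 0.30), and on replicates 1 and 2 its signal was 0.01 to 0.31 above background.

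Of the DP partners, Tfdp1, which most E2Fs need to bind DNA firmly, was at 7.90, 8.24 and 9.90 in wild type and at 7.85, 8.0 and 9.79 in the knockout. It was lower in the knockout in all 3 replicates, by -0.05, -0.24 and -0.12, the only member for which this held, as it did for 13.8% of all genes. Its mean difference was -0.14 (SE 0.75 without and 0.09 with the block, 95% interval -0.34 to 0.07), and it stood at least 2.42 above background on every array. Tfdp2, its relative, was at 4.70, 4.97 and 6.14 in wild type and at 4.64, 4.91 and 6.14 in the knockout. It was above background only on the 2 replicate 3 arrays, where the genotypes differed by 0.00, so no difference is read from replicates 1 and 2 (mean over all 3 -0.04, SE 0.09).

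**Figure D2:**
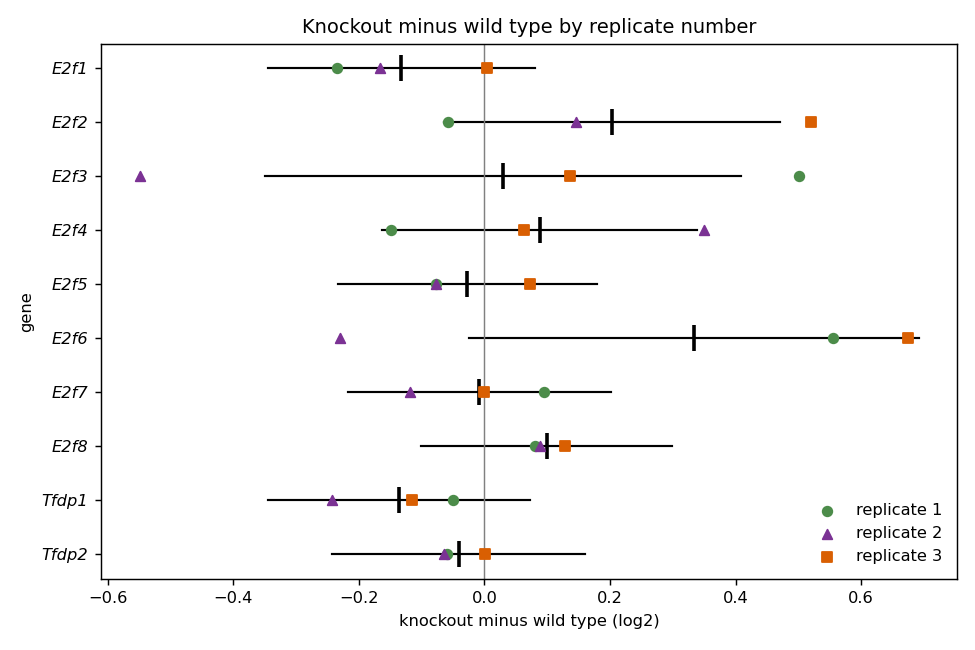
Knockout minus wild type on the log2 scale (x axis) for each gene (y axis), with a symbol for each replicate number, the mean as a vertical tick and limma's 95% interval with the replicate block as a line. Every interval crosses 0, and E2f3 and E2f6 have the widest spread over the replicates.

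These intervals bound what the arrays can show. With the block they ran from -0.35 to 0.69 over the 10 members, and without it from -2.21 to 2.44, since the replicate 3 divide then counts as spread. Limma draws each gene's spread toward that of all genes, and for E2f3 and E2f6 the 3 differences spread more widely (SD 0.53 and 0.49) than such an interval shows. Without a block, leaving out wild type replicate 3 moved the members' median difference to 0.54 and leaving out knockout replicate 3 to -0.49, because the genotypes then hold unequal shares of replicate 3 (dropping wild type replicate 1 or 2 gave -0.30 or -0.19, and dropping knockout replicate 1 or 2 gave 0.27 or 0.24).

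The replicate divide was, on the deposited scale, larger than any mean genotype difference of the family. It is given as a description, without a test, since these samples were seen to stand apart. For 9 of the 10 members both replicate 3 arrays lay above all 4 others, as for 39.9% of all genes, and E2f2 lay below them on both, as for 46.7% of all genes. Replicate 3 minus the mean of replicates 1 and 2 had a median of 1.79 over the members and of -0.11 over all genes. Only 11048 of all 22180 genes were above background on at least 3 arrays, against 9 of the 10 members. The values over all genes thus include many dim genes, and no comparison was made among brighter genes alone. The difference was alike in the genotypes, with a median of 1.79 in wild type and 1.79 in the knockout.

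By gene, the replicate 3 difference was 2.25 for E2f8 (4.76-fold), 1.99 for E2f5, 1.85 for Tfdp1 and 1.73 for E2f4. It was smaller for E2f7 (1.03) and E2f1 (0.82). On replicates 1 and 2 the E2f8 signal lay only 0.01 to 0.31 above background, so its size rests on signals near background there. For 3 members that fell short of background on some arrays of replicates 1 and 2, only a lower bound is given, computed after raising each dimmer signal to the background of its array. The bound was at least 2.01 for E2f6 (1 of 4 arrays below), at least 1.93 for E2f3 (3 of 4) and at least 0.75 for Tfdp2 (4 of 4). With these bounds in place the members' median stayed at 1.79. The signal of E2f2 was lower on replicate 3, at 4.22 and 4.74, but it lay at most 0.26 above background on any array and the background level of the replicate 3 arrays was itself lower, so no size is read from it.

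Part of this size depends on the scale of the replicate 3 arrays, whose signals spread more widely. Whether the deposited values put all 6 arrays on one common scale could not be checked. When all 6 arrays were given the same distribution by quantile normalization, the members' median replicate 3 difference was 1.08 in place of 1.79. The median over all genes was then -0.08. Both replicate 3 arrays still lay above the other 4 for 8 members and below them for E2f2. Of all 22180 genes, 7588 lay above and 9236 below in this way. E2f1 was then at 0.11 and overlapped, and E2f7 was at 0.21. Both were smaller than the mean genotype difference of E2f6 after quantile normalization, 0.32. E2f8 was at 1.58, E2f5 at 1.23, Tfdp1 at 0.93 and E2f4 at 0.76, and the lower bounds were 1.41 for E2f3, 1.36 for E2f6 and 0.61 for Tfdp2. With the bounds in place the median after quantile normalization was 0.84.

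**Figure D3:**
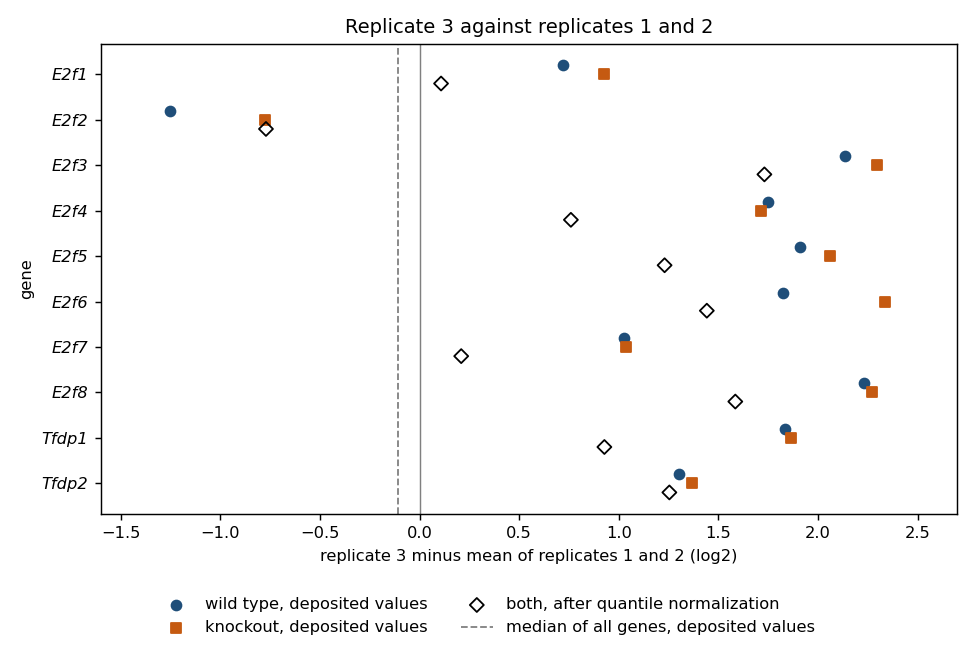
Replicate 3 minus the mean of replicates 1 and 2 on the log2 scale (x axis) for each gene (y axis), with wild type as circles, knockout as squares and the mean of both genotypes after quantile normalization as open diamonds; the dashed line is the median of all genes. The points show measured signals, so those of E2f2, E2f3, E2f6 and Tfdp2 rest partly on arrays below background; E2f2 alone lies below 0, and the values of E2f1 and E2f7 come close to 0 after quantile normalization.

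Among the genes around the E2Fs, limma called 0 members of any of the 7 lists, with or without the block. Counts at an unadjusted p under 0.05 with the block are given below beside the 6.73% of all genes that had one (727 higher and 765 lower). Of 12 pocket proteins and MuvB components, 9 were below and 3 above 0, with a median of -0.08 and 0 at an unadjusted p under 0.05 with the block. The pocket proteins, named for their role and outside the rule for named genes, were at 0.08 (Rb1), -0.18 (Rbl1) and -0.13 (Rbl2). Foxm1, the factor that joins MuvB in G2, was at 7.29, 7.29 and 8.19 in wild type and at 7.15, 7.18 and 7.90 in the knockout. It was lower in all 3 replicates, by a mean of -0.18 (SE 0.09 with the block; limma adjusted p = 0.784). Rbbp4, a histone-binding MuvB subunit, was at -0.16 (SE 0.10).

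Upstream of the E2Fs, 15 of 16 listed cyclins, kinases and inhibitors were measured, with a median of 0.04. With the block 1 of 15 was higher and 2 lower at an unadjusted p under 0.05, as were 6.73% of all genes in either direction. Cdkn1c, the CDK inhibitor p57, was at 6.21, 6.21 and 5.91 in wild type and at 5.72, 5.68 and 5.44 in the knockout, so that the genotypes did not overlap. Its difference of -0.49 (SE 0.09 with the block, 0.18 without) had an adjusted p of 0.142 with the block in limma. Cdk6, a kinase that phosphorylates pocket proteins, was at 5.34, 5.34 and 7.78 in wild type and at 5.86, 5.73 and 8.12 in the knockout, higher in all 3 replicates, with a mean of 0.42 (SE 0.09 with the block; limma adjusted p = 0.259). Its wild type signal was below the background of 5.44 on replicate 1 and level with that of 5.33 on replicate 2.

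Of 33 measured E2F targets of G1/S, 13 were above and 20 below 0, with a median of -0.06 and with 1 higher and 1 lower at an unadjusted p under 0.05 with the block, a share near the 6.73% of all genes. The 2 genes with the smallest p are given as the rule for named genes asks. Mcm5, a subunit of the replicative helicase, was at 8.49, 8.54 and 9.56 in wild type and at 8.30, 8.15 and 9.24 in the knockout (mean difference -0.30, SE 0.09 with the block). Ccne1, the cyclin that activates Cdk2 at S phase entry, went the other way, at 6.96, 7.35 and 8.33 in wild type and 7.53, 7.53 and 8.56 in the knockout (mean difference 0.33, SE 0.10). Both differences had the same sign in all 3 replicates, and neither passed over all genes with the block (limma adjusted p = 0.558 and 0.586).

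The G2/M genes of the MuvB programme lay mostly on one side: 23 of 24 were below 0 (11230 of all 22180 genes were) and 13 were lower in all 3 replicates, where 13.8% of all genes were. Their median was -0.18, with -0.09, -0.21 and -0.24 in replicates 1, 2 and 3, and 8 of 24 were lower and 0 higher at an unadjusted p under 0.05 with the block, beside 6.73% of all genes in either direction. The mitotic kinase Plk1 was at 8.13, 8.31 and 9.28 in wild type and at 7.80, 7.58 and 8.88 in the knockout (mean difference -0.49, SE 0.11 with the block; limma adjusted p = 0.258). Aurkb, a kinase of chromosome segregation, was at -0.31 (SE 0.11; limma adjusted p = 0.611). Of the 24 genes, 21 were above background on at least 3 arrays of these confluent cultures. The list was drawn up with lower mitosis genes in the knockout already known from these arrays, and its direction is not independent evidence. Of the fibroblast markers 0 of 10 passed, with 8 below 0, a median of -0.12 and 4 lower at an unadjusted p under 0.05 with the block (mean signal 9.07 to 9.88 in wild type and 8.85 to 9.56 in the knockout). Of the skeletal muscle markers 6 of 6 were above 0, with a median of 0.13 (mean signal 5.15 to 5.98 and 5.34 to 6.08) and 0 at such a p. The neural and endothelial markers had medians of 0.12 and 0.11, each with 4 of 6 above 0 and with 1 and 2 higher at such a p (mean signal 5.60 to 5.81 and 5.78 to 5.93 for neural, 4.20 to 4.93 and 4.47 to 4.99 for endothelial). The 2 endothelial genes, Tek and Emcn, were above background on 0 arrays and 1 array. The part of the marker lists in the gene differences was not tested.

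Without a block, the medians of these lists turned with the arrays left out. Without wild type replicate 3 they were 0.30 for the G2/M genes, 0.45 for the G1/S targets, 0.46 for the pocket and MuvB list and 0.25 for the upstream list. Without knockout replicates 1 and 2 they were 0.08 and 0.05 for the G2/M genes, 0.24 and 0.19 for the G1/S targets and 0.15 and 0.19 for the pocket and MuvB list. For the upstream list they were -0.11, -0.06 and -0.18 when wild type replicate 1, wild type replicate 2 or knockout replicate 3 was dropped. In the fit with the block, dropping replicate 1, 2 or 3 gave a G2/M median of -0.22, -0.17 or -0.16. The G1/S median was -0.10, -0.01 or 0.01 in the same order, so that it was close to 0 without replicate 2 or replicate 3. The median of the pocket and MuvB list was 0.01 without replicate 2.

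**Figure D4:**
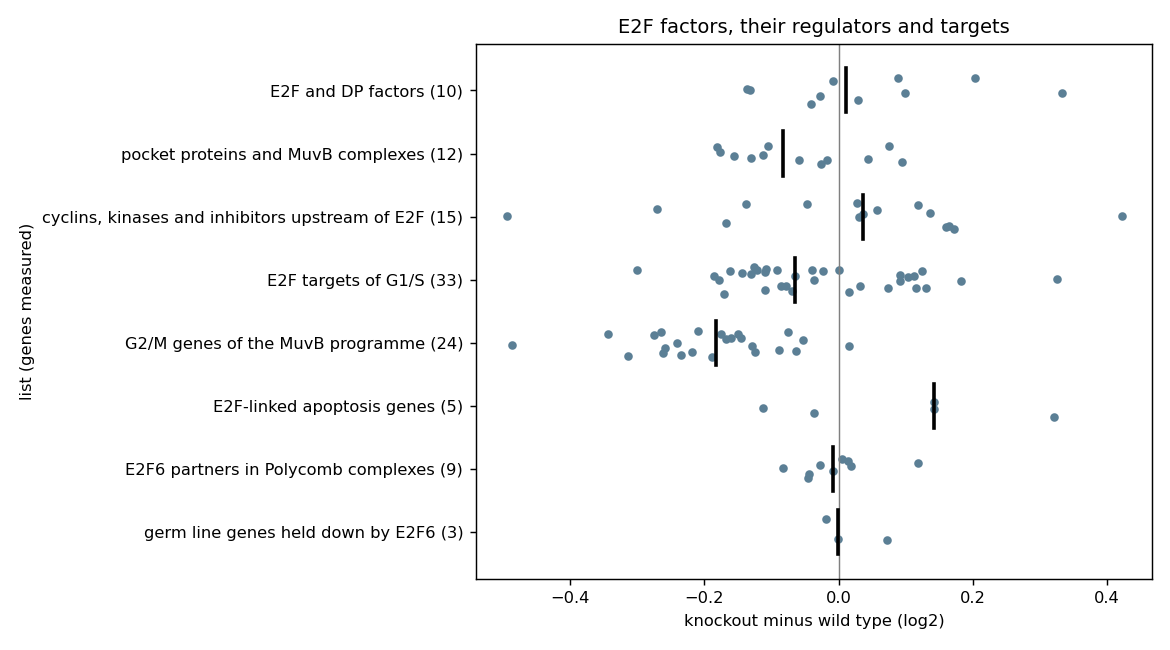
Knockout minus wild type on the log2 scale (x axis) for each gene of 8 lists (y axis, with the number of genes measured), each point a gene and each black bar the median of its list. The G2/M genes lie almost wholly below 0, with a median of -0.18, while the E2F and DP factors lie on both sides, with a median of 0.01.

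The apoptosis genes linked to E2Fs had a median of 0.14 over 5 of 7 members. With the block 1 of the 5 (Bcl2l11) was higher and 0 lower at an unadjusted limma p under 0.05, beside 6.73% of all genes in either direction. Above background on at least 3 arrays were 3 of the 5. Bcl2l11, which encodes the death factor Bim, was above background only on the 2 replicate 3 arrays, where wild type was at 5.80 and the knockout at 6.06. Bbc3 (Puma) was likewise above background only there, at 4.96 and 5.05. Over those 3 genes the median was -0.04, and over all 5 with array weights -0.10, so that the direction of this list is not settled. The median was 0.03 without knockout replicate 3, 0.09 without either wild type replicate 1 or 2, and -0.01 with the block and without replicate 3.

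The partners of E2f6 in Polycomb complexes were level between genotypes, with a median of -0.01 and differences of -0.08 to 0.12 over 9 genes. With the block 0 of the 9 had an unadjusted limma p under 0.05 (6.73% of all genes). Pcgf6, the subunit that defines the E2f6 complex, was above background only on replicate 3, at 7.81 in wild type and 7.97 in the knockout. Rnf2, the ubiquitin ligase of the complex, was at -0.08 (SE 0.09 with the block). In the fit with no block the list's median was 0.56 when wild type replicate 3 was dropped and -0.63 when the knockout's was. Of 5 germ line genes known to be held down by E2f6, 3 were measured, with 0 at such a p. Smc1b, a meiotic cohesin subunit, was not above background on any array. Stag3, another, was above it only on the 2 replicate 3 arrays, at 4.83 in wild type and 4.70 in the knockout.

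The cell cycle genes shared the replicate divide of the E2Fs. Both replicate 3 arrays lay above the other 4 for 24 of 24 G2/M genes, 32 of 33 G1/S targets and 11 of 12 pocket and MuvB genes (39.9% of all genes, dim ones included). The medians of these lists were 1.51, 1.30 and 1.68. After quantile normalization these counts were 18, 23 and 7 (7588 of all genes), with medians of 0.53, 0.48 and 0.80. The divide was not particular to cell cycle genes. Of 10 fibroblast markers 7 lay above and 0 below, with a median of 0.54. After quantile normalization 4 of them lay above and 3 below, with a median of -0.03. No other marker list had more genes above than below on the deposited scale. The upstream list had a smaller median, 0.46 (0.24 after quantile normalization), with 12 of 15 above. Cdkn2a, the locus of the INK4a and ARF inhibitors, was chosen after its values were seen: it lay lower on replicate 3, at 6.96 in wild type and 7.17 in the knockout against 7.51 to 7.76 on the other arrays. Among 9 E2f6 partners, 6 lay above and Cbx3, also singled out after its values were seen, below.

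The genes most like a member across the 6 arrays were sought among the genes above background on at least 3 arrays, for an activating (E2f1), a repressing (E2f4) and an atypical factor (E2f7). No DP partner was searched. For E2f1 they were Psat1 (an enzyme of serine synthesis), Pcbp2 (an RNA-binding protein) and Cacng7 (a calcium channel subunit), with Pearson r of 0.999, 0.998 and 0.997. For E2f4 they were Orai3, Etv5 and Sec61a2, and for E2f7 Srcap, Ipo5 and Nmnat2, all with r over 0.99. The 6 arrays fall into 2 clusters, and r follows this divide: 49.0%, 54.2% and 55.6% of the genes searched had r over 0.9 with E2f1, E2f4 and E2f7. The likeness is a description of these arrays.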

How the data were processed

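Expression was measured on 6 Affymetrix arrays, 3 per genotype. For each probe set the authors deposited a log2 value from RMA in Partek, per the submitters' processing notes. The sources used here give no version, parameter or genome build. Whether all 6 arrays were normalized together could not be checked. Over all probe sets the interquartile range was 2.56 and 2.52 on the replicate 3 arrays and 1.88 to 1.935 on the others. The log2 scale was read from the values and the name RMA. Of 41345 probe sets, 23521 had 1 gene in the platform annotation, 1814 had several and 16010 none. For a gene with several probe sets the brightest was taken. The lmFit and eBayes functions of limma 3.58.1 (R 4.3.3) gave two-sided tests that compared knockout with wild type over 22180 genes, with Benjamini-Hochberg adjustment at 0.05. It was tested on simulated data. Equal-numbered arrays deviated together from their genotype's mean (r = 0.920, 0.895 and 0.973 for replicates 1, 2 and 3), and a second fit took the number as a block. This pairing comes from the data, and arrays of replicates 1 and 2 of opposite genotype also correlated (0.910 and 0.898). Precision is limited by the number of arrays.

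The members and lists were chosen with earlier results of these data known. Besides the members, the text names from each list the genes past the threshold in either fit, up to 4, or else the 2 with the smallest p in the fit with the replicate block, and for E2f1, E2f4 and E2f7 the 3 genes with the highest r. Alternatives were a block by replicate or batch, leaving out arrays, quantile normalization, a filter on dim genes, the mean over probe sets, a variance trend and array weights. Promoter sequences are RefSeq's, build GRCm38.p6. Protein sequences were not used here.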

Additional observations from a re-analysis of the deposited data

How the results depend on the processing

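No setting called a member: 0 of 10 passed under every alternative, with the filter leaving 9 (Tfdp2 was above background on only 2 arrays). Over all genes limma called 0, against 17 with the replicate block and 19 with a block of replicate 3 against replicates 1 and 2. It called 21 with quantile normalization and the replicate block, and 6 with array weights (whose estimation stopped before convergence). With arrays or replicate numbers left out it called 0 to 98. Settings chosen after seeing the data gave 1 within replicates 1 and 2 and 42 with the replicate block among genes above background. The members' median difference ranged from -0.49 to 0.54 with arrays left out. Member differences without 1 array ranged from -0.44 to 0.11 for E2f1, -0.22 to 0.46 for E2f2, -0.74 to 0.74 for E2f3, -0.48 to 0.67 for E2f4, -0.71 to 0.61 for E2f5, -0.45 to 0.94 for E2f6, -0.35 to 0.33 for E2f7, -0.66 to 0.84 for E2f8, -0.76 to 0.48 for Tfdp1 and -0.50 to 0.39 for Tfdp2, the lowest (for E2f2 the highest) without knockout replicate 3 and the opposite end without wild type replicate 3. Apart from these, signs turned for E2f3 with array weights (-0.28) and within replicates 1 and 2 (-0.024) and for E2f6 with array weights (-0.10), and the cause was not tested. With the paired fit, that is the replicate block, and 1 number left out, E2f3, E2f4 and E2f7 also changed sign, and the block changed no call of a member. Signals near background limit E2f2, E2f3, E2f6, E2f8 (on replicates 1 and 2) and Tfdp2.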
